A study of Homo sapiens with 26 samples.

Results

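The 10 genes described here encode assembly factors of cytochrome c oxidase (complex IV of the respiratory chain): COX10, COX11, COX14, COX15, COX16, COX17, COX18, COX20, SCO1 and SURF1. They were taken as a list of names, with no rule on a measured value, but earlier results of these data were known. They are 10 of the 60663 genes counted in RNA-seq. In ribosome profiling, 7 of the 10 have an entry of their own among 58849 entries, and COX15, COX16 and COX17 are counted jointly with overlapping genes. The measurement is LOCL-TL, in which a biotin ligase switched on by blue light (LOV-BirA) tags nearby ribosomes that carry the Avi peptide on RPL29, a protein of the large subunit, in HEK293T cells, a human embryonic kidney line. A streptavidin pulldown is then compared with the total input of the same lysate. For ribosome profiling, LOV-BirA was fused to Sec61β for the ER or to the transmembrane domain (TMD) of OMP25 for the outer mitochondrial membrane (OMM), or was free in the cytosol, with cycloheximide (CHX) to stop elongation and 2 replicates per location. For RNA-seq, whole transcripts were pulled down at the OMM from wild-type cells with a negative control gRNA, AKAP1 null cells and LARP4 null cells, 2 replicates each. A further replicate, 1 in all, came from cells without CHX. Its label names no genotype or gRNA, and it is taken here as wild-type. AKAP1 is an OMM anchor protein that binds RNA and protein kinase A, and LARP4 is a cytosolic protein that binds poly(A) mRNA. Each null genotype is 1 monoclonal line, so line and genotype cannot be told apart, and its CHX treatment is assumed from the general protocol. The LOV-BirA lines are sorted polyclonal pools, with the SFFV promoter at the ER and the EF1α promoter elsewhere, and the cells without CHX were labelled for a shorter time.

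Cytochrome c oxidase passes electrons from cytochrome c to oxygen in the mitochondrial inner membrane. Its catalytic subunits COX1 and COX2 are made inside mitochondria and carry heme A and copper, which dedicated nuclear-encoded proteins synthesise, deliver and insert. These assembly factors are not part of the finished enzyme, are translated on cytosolic ribosomes and must be imported, and loss of several of them causes human cytochrome c oxidase deficiency.

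Depth ran from 1025114 to 19539527 coding-sequence footprints in ribosome profiling, lowest in the OMM pulldowns, and from 38347615 to 100840544 counts in RNA-seq. The targeted genes followed their labels in the total inputs. AKAP1 stood at 32.2 and 20.3 CPM (counts scaled to the same library total) in AKAP1 null cells against 114.5 and 119.5 in wild-type cells, and LARP4 at 79.3 and 74.0 CPM in LARP4 null cells against 225.0 and 231.3. The HEK293T markers PAX2, LHX1, NEFL, NEFM and VIM reached 1 CPM in 7 of 7 total inputs. Of the markers of other cell types, PTPRC, CD3E, ALB, PECAM1 and INS stayed under that level in every total input, and COL1A1 lay between 7.16 and 23.1 CPM. The replicates are separate samples by their labels, but nothing in the labels says that they came from separate cultures, so p-values measure only the spread between these samples.

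Per kb of gene model, mRNA levels over the 6 total inputs with CHX were compared between the members. COX14, the smallest of the proteins at 57 amino acids (aa), had the highest median at 18.7 CPM per kb, with a range of 15.2 to 24.5. COX15 followed at 15.2 (14.4 to 16.6), COX17 at 15.0 (12.7 to 19.8), COX11 at 12.1 (9.52 to 13.4) and SCO1 at 11.7 (10.9 to 12.1). COX20 at 7.47 (5.49 to 10.2), SURF1 at 5.59 (5.02 to 5.83), COX10 at 5.09 (4.42 to 5.91), COX18 at 4.01 (3.90 to 4.53) and COX16 at 3.48 (2.71 to 3.93) were lower. Ranges of neighbours in this order overlapped, except those of SCO1 and COX20. Such values compare amounts of RNA, and fewer transcripts per cell cannot be told apart from fewer cells with the transcript.

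In wild-type cells, RNA-seq at the OMM divided the assembly factors into enriched and depleted mRNAs. SURF1, COX14 and COX17 were enriched between 2.14- and 4.13-fold, COX20 was enriched weakly, and COX15, COX18, SCO1 and COX10 were depleted. In all, 4 of 10 were called higher and 4 lower in the edgeR fit at an adjusted p below 0.05, beside 20.2% higher and 45.6% lower (65.9% in either direction) among 13856 genes tested. Values are log2 of CPM in the pulldown over CPM in the total input, and the median of all genes was −0.28. The median of the 10 members was 0.27. Measured from the median of all genes, COX10 (0.04), SCO1 (−0.02) and COX18 (−0.10) lay near the bulk of genes and COX15 below it (−0.33). The share of members called lower was close to that of all genes.

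Of the heme A enzymes, COX10 (ENSG00000006695, chr17:14069490-14231736, GRCh38) makes heme O by adding a farnesyl chain to heme, and COX15 (ENSG00000014919, chr10:99710868-99732127) converts heme O to heme A. COX10 had log2 enrichments of −0.33 and −0.15 in the 2 wild-type lysates, a fitted value of −0.24 (SE 0.09, adjusted p = 0.0438). COX15 had −0.66 and −0.56, fitted −0.61 (SE 0.10, adjusted p = 0.000946). Both lysates were below 0 for each gene, but COX10 lay close to the median of all genes and COX15 below it.

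Among the copper proteins, COX17 (ENSG00000138495, chr3:119654513-119677454), the soluble chaperone that hands copper on in the intermembrane space, gave 1.04 and 1.16, fitted 1.10 (SE 0.09, adjusted p = 2.70e-05). SCO1 (ENSG00000133028, chr17:10672474-10698375), which passes copper to COX2, gave −0.31 and −0.30, fitted −0.30 (adjusted p = 0.0179). COX11 (ENSG00000166260, chr17:54951902-54968703), which serves the copper site of COX1, gave 0.18 and 0.31 and was not called (fitted 0.25, adjusted p = 0.0709). Within this pathway the small chaperone alone stood well above the 2 membrane-bound proteins, with no overlap between lysates.

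The COX1 module held the highest values. COX14 (ENSG00000178449, chr12:50112082-50120457), which binds newly made COX1, gave 1.74 and 1.75, fitted 1.74 (SE 0.10, adjusted p = 8.46e-06). SURF1 (ENSG00000148290, chr9:133351758-133356676), needed for maturation of COX1 and mutated in Leigh syndrome, gave 2.01 and 2.08, fitted 2.04 (SE 0.12, adjusted p = 9.25e-06). SURF1 ranked 94 and COX14 ranked 207 from the top of 13856 genes. In CPM per kb, SURF1 went from 5.83 and 5.71 in the total inputs to 23.5 and 24.1 in the pulldowns, and COX14 from 19.4 and 18.04 to 64.6 and 60.7.

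The COX2 module did not move together. COX20 (ENSG00000203667, chr1:244835616-244845057), a chaperone of new COX2, gave 0.21 and 0.43, fitted 0.32 (adjusted p = 0.0267). COX18 (ENSG00000163626, chr4:73052362-73069755), the translocase that exports the COX2 tail, gave −0.32 and −0.45, fitted −0.39 (adjusted p = 0.0163). COX16 (ENSG00000133983, chr14:70325081-70416984), which joins COX2 maturation, gave 0.11 and 0.47 and was not called (fitted 0.29, adjusted p = 0.126). COX20 overlaps HNRNPU and SURF1 overlaps SURF2 on the opposite strand, COX16 overlaps SYNJ2BP-COX16 on its own strand and COX17 overlaps POPDC2. COX15 overlaps the protein-coding ENSG00000285932 on its own strand and ENTPD7 and CUTC on the opposite strand. COX14 overlaps a long noncoding RNA gene on its own strand, and COX11 overlaps TOM1L1 and SCO1 overlaps ADPRM on the opposite strand. The strand setting of the counting is not given in the sources used here, so reads of such pairs cannot be told apart.

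**Figure D1:**
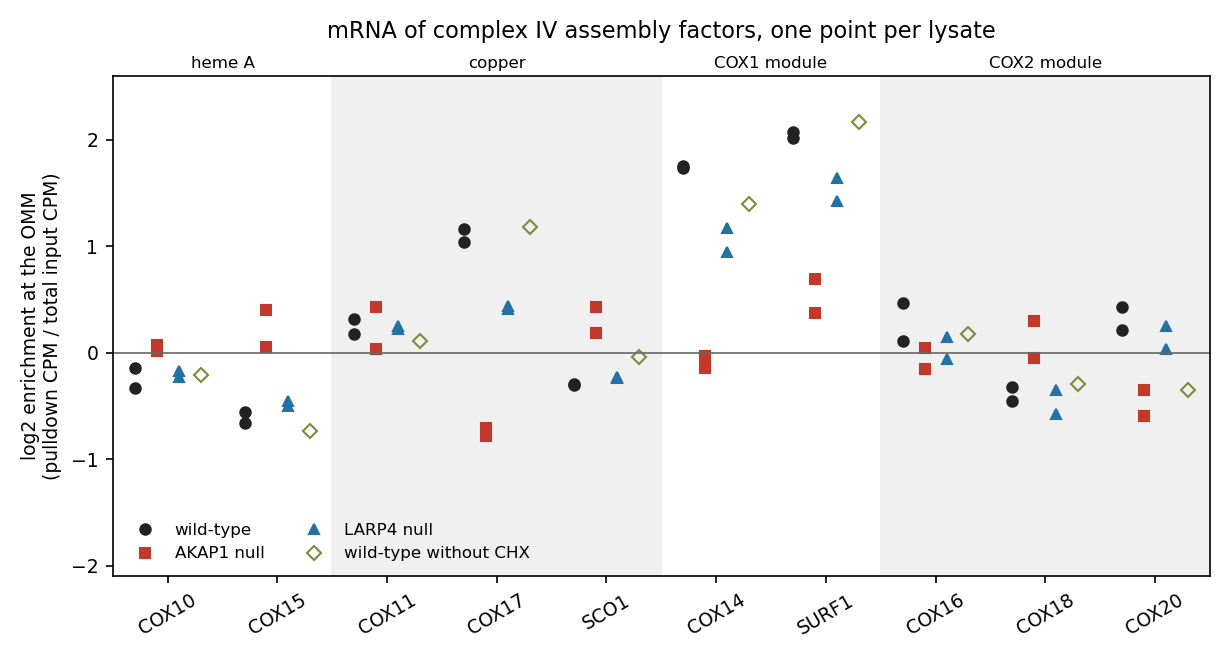
Log2 enrichment of the 10 mRNAs at the OMM (pulldown CPM over total input CPM, vertical axis) by gene and role, 1 point per lysate for wild-type, AKAP1 null, LARP4 null and wild-type cells without CHX. SURF1, COX14 and COX17 lie above 1 in both wild-type lysates, and the AKAP1 null points of all 3 lie below 0.7.

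The calls of SURF1, COX14, COX17 and COX15 held in every setting tried. With TMM scaling, which centres most genes on 0 and gives 31.0% higher and 27.8% lower calls over all genes, COX10 turned to 0.06, COX18 and SCO1 lost their calls (−0.09 and −0.01), and COX11 and COX16 were called higher at 0.54 and 0.59. Without wild-type replicate 1 or 2, the calls of COX10 (adjusted p 0.443 and 0.111), SCO1 (0.156 and 0.153), COX18 (0.0871 and 0.203) and COX20 (0.0754 and 0.341) were lost.

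Footprints gave pulldown over total input for the labelled ribosomes themselves. In RNA-seq any labelled ribosome can bring down its whole transcript, so the measures are not the same. Genes were tested where both total inputs of a location held at least 64 footprints in the coding sequence, which 4 members met at the OMM (COX11, COX14, COX18 and SCO1). COX14 was enriched 3.15-fold and COX11 1.48-fold, while SCO1 and COX18 were not called. Thus 2 of 4 were called higher and 0 lower, beside 17.0% higher and 46.0% lower (62.9% in either direction) of 6728 genes, which TMM turned into 25.8% and 24.4%. Values per replicate are log2 ratios of the deposited RPKM. The fit uses totals of coding-sequence footprints instead, which sets the median of all genes at −0.38.

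COX14 gave 1.65 and 1.63 at the OMM, fitted 1.66 (SE 0.14, edgeR adjusted p = 1.99e-08), at rank 129 of 6728. The same gene gave 0.18 and 0.18 at the ER (fitted −0.11, adjusted p = 0.394) and 0.06 and −0.16 in the cytosol (fitted −0.27, adjusted p = 0.204). Both OMM replicates were far above the other 4, and the OMM value exceeded the ER value by 1.76 (95% interval 1.38 to 2.14, adjusted p = 1.46e-07) and the cytosolic value by 1.93 (1.54 to 2.31, adjusted p = 2.25e-07). In counts, the OMM libraries held 227.5 and 262.3 footprints in the total inputs and 147.4 and 375.2 in the pulldowns, and the RPKM were 119.7 and 126.1 against 376.7 and 390.0. The headers of the deposited counts name a dated folder of raw data, and nothing says what a folder stands for. OMM replicate 2 and ER replicate 2 share a folder name, and their difference for COX14 was 1.45. Total input and pulldown of cytosol replicate 1 carry different folder names. For every member, folder and pulldown thus cannot be told apart in that value. Cytosol replicate 2 carries a folder name shared with neither OMM replicate.

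COX11 gave 0.53 and 0.56 at the OMM, fitted 0.56 (SE 0.11, edgeR adjusted p = 0.000390). It gave 0.65 and 0.39 at the ER, fitted 0.24 (adjusted p = 0.0312), and 0.43 and 0.19 in the cytosol, fitted 0.08 (adjusted p = 0.687). The ER values spanned those of the OMM, both cytosolic values lay below both OMM values, and the OMM value exceeded the cytosolic one by 0.48 (0.16 to 0.80, adjusted p = 0.0127) but was not called different from the ER (0.33, 0.01 to 0.64, adjusted p = 0.0842). With the library sizes of the RPKM, on which the values per replicate rest, the difference from the cytosol was 0.23 (adjusted p = 0.217). With no term per lysate, COX11 was not called at the OMM (adjusted p = 0.0607), at the ER (0.273) or over the cytosol (0.268). The call over the cytosol was also lost without OMM replicate 1 (adjusted p = 0.0607) or 2 (0.0926), and that at the ER without ER replicate 1 (0.271) or 2 (0.0936).

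COX18 had its highest footprint values per replicate at the ER and in the cytosol. It gave 1.05 and 0.94 at the ER, fitted 0.71 (SE 0.13, edgeR adjusted p = 8.33e-05), and 0.94 and 0.60 in the cytosol, fitted 0.55 (adjusted p = 0.0154, rank 23 of 7162). At the OMM it gave 0.22 and −0.07 (fitted 0.08, adjusted p = 0.715). All 4 ER and cytosol values exceeded both OMM values, but these RPKM ratios have a median over tested genes that differs by location. That median was −0.40 and −0.37 at the OMM, −0.34 and −0.44 at the ER and 0.24 and 0.25 in the cytosol. Against the cytosol the fitted OMM difference was −0.47 (−0.94 to 0.01, edgeR adjusted p = 0.0853) and was not called. With the library sizes of the RPKM it was −0.72 (adjusted p = 0.0105). The OMM enrichment was lower than that of the ER by 0.63 on the log2 scale (fitted difference −0.63, −1.10 to −0.16, adjusted p = 0.0265), and this call was lost without ER replicate 1 (0.0936), ER replicate 2 (0.0939) or OMM replicate 2 (0.250). The pulldowns behind the OMM values hold 49.0 and 76.9 footprints. The cytosolic call was lost without cytosol replicate 1 (adjusted p = 0.190) and with only the libraries compared (0.0506), and with no term per lysate neither the cytosolic call (0.9997) nor that against the ER (0.346) held.

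SCO1 gave −0.18 and 0.46 at the OMM, 0.33 and −0.09 at the ER, and 0.44 and 0.17 in the cytosol, with all locations overlapping and no call (edgeR adjusted p = 0.259, 0.258 and 0.768). The direction of SCO1 and COX14 at the ER depends on the scaling. TMM moved the median of all genes there from −0.68 to −0.03, and SCO1 and COX14 were then called higher at 0.49 and 0.54. At the OMM, TMM added a call for SCO1 at 0.52. Over the cytosol, which 5 members could be tested for, 1 was called higher and 0 lower, beside 2.02% and 5.96% (7.99% together) of 7162 genes. At the ER 2 of 4 were called higher and 0 lower, beside 19.8% and 72.0% (91.9% together) of 7381 genes, which TMM turned into 29.2% and 25.4%. Of the OMM differences, 1 of 4 was higher and 1 lower against the ER, beside 31.1% and 18.6% of genes, 49.6% together (14.2% and 22.7% with TMM), and 2 of 4 higher against the cytosol, beside 16.6% (39.7% were lower, 56.3% together, and TMM gave 24.5% and 20.8%).

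SURF1 carried the highest footprint enrichment but few footprints. In the OMM libraries 60.0 and 43.2 footprints in the total inputs stood against 57.9 and 109.8 in the much shallower pulldowns, which gave log2 values of 2.23 and 2.46. It also gave 1.79 and 1.69 at the ER, and 0.28 and 0.66 in the cytosol, so both membranes stood above the cytosol in each replicate. With the minimum lowered to 10 footprints, the edgeR fit called SURF1 higher at the OMM (2.37, SE 0.22, adjusted p = 2.22e-08) and at the ER (1.45, SE 0.18, adjusted p = 2.96e-07). The OMM exceeded the ER by 0.92 (0.32 to 1.51, adjusted p = 0.0125) and the cytosol by 2.12 (1.53 to 2.72, adjusted p = 6.33e-06). Counting all exons in place of the coding sequence gave 2.13 and 2.05 at the OMM and 1.54 and 1.58 at the ER.

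COX20 went the other way in footprints. It gave −0.81 and −1.64 at the OMM on 7.19 and 9.02 pulldown footprints, −0.75 and −0.84 in the cytosol, and −0.34 and −0.00 at the ER. With the minimum of 10 the edgeR fit called it lower at the OMM (−1.29, SE 0.39, adjusted p = 0.00895) and in the cytosol (−1.02, SE 0.23, adjusted p = 0.00832). The OMM value was not called different from the cytosol (−0.27, −1.26 to 0.71, adjusted p = 0.675) or the ER (−0.80, −1.77 to 0.16, adjusted p = 0.170). The low footprint value is thus not shown to be particular to the OMM. COX20 mRNA was enriched in wild-type RNA-seq, so footprints and whole transcripts of COX20 at the OMM pointed in opposite directions in each of their 2 replicates. COX10 gave 0.41 and 0.87 at the OMM, 0.13 and 0.33 at the ER and 0.63 and 0.84 in the cytosol, and the fit with the lower minimum made no call. Counting all exons turned the sign of COX10 at the OMM (−0.29 and −0.03) and in the cytosol (−0.19 and −0.82), and gave −0.087 and 0.13 at the ER, so no direction is drawn for it. For COX20 at the OMM all exons gave −0.93 and −1.01.

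**Figure D2:**
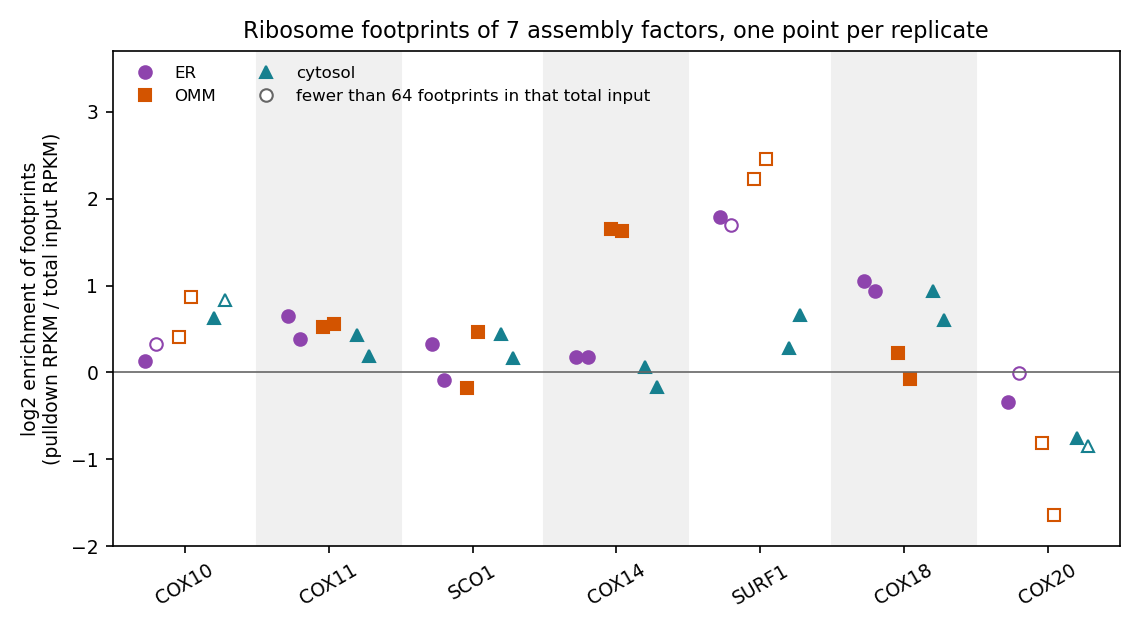
Log2 enrichment of ribosome footprints (pulldown RPKM over total input RPKM, vertical axis) for the 7 members with an entry of their own at the ER, OMM and cytosol, 1 point per replicate, open where the total input held fewer than 64 footprints. COX14 is high at the OMM alone, SURF1 at the OMM and the ER, and COX18 at the ER and in the cytosol.

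For the other 3 members the footprints belong to several genes and are given as values of the joint entry. The entry of COX17, with POPDC2, gave 1.17 and 0.76 at the OMM, 0.13 and −0.23 at the ER and −0.36 and −0.45 in the cytosol. The entry of COX16 also names SYNJ2BP, the gene of OMP25, whose TMD the OMM construct carries, and gave 0.97 and 0.93 at the OMM, 0.82 and 0.80 at the ER and 0.20 and 0.34 in the cytosol. The entry of COX15 gave −0.20 and −0.39 at the OMM, 0.06 and −0.04 at the ER and 0.12 and 0.25 in the cytosol. The share of footprints from each gene of an entry was not tested.

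In the AKAP1 null line the most enriched members had lower OMM enrichment. Against wild-type, COX17 fell 3.59-fold, COX14 3.56-fold, SURF1 2.84-fold and COX20 1.73-fold in enrichment, and COX15 and SCO1 rose 1.78- and 1.53-fold. That is 4 of 10 lower and 2 higher in the edgeR fit, beside 7.96% lower and 6.52% higher, 14.5% together, of 13856 genes (10.3% and 2.06% with TMM). Both null lines are set against the same wild-type lysates. The median difference was −0.18 for the members and 0.19 for all genes.

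COX17 gave −0.78 and −0.70 in AKAP1 null lysates where wild-type gave 1.04 and 1.16, a difference of −1.84 (95% interval −2.13 to −1.56, adjusted p = 0.000209). The pulldown was thus below its total input in both AKAP1 null lysates. COX14 gave −0.15 and −0.03, a difference of −1.83 (−2.15 to −1.52, adjusted p = 0.000330), and was not called different from its total input. SURF1 gave 0.69 and 0.38, a difference of −1.51 (−1.89 to −1.13, adjusted p = 0.000822), and was still called enriched (0.54, adjusted p = 0.00831, but 0.155 without AKAP1 null replicate 1). For all 3 genes every AKAP1 null lysate lay below every wild-type lysate, and the call held with any 1 lysate left out, with values of −1.90 to −1.78, −1.89 to −1.77 and −1.67 to −1.35. Their ranks from the bottom of 13856 genes were 65, 70 and 204.

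COX20 gave −0.35 and −0.60, below both wild-type lysates, a difference of −0.79 (−1.14 to −0.45, adjusted p = 0.0113). COX15 gave 0.05 and 0.40, a difference of 0.84 (0.50 to 1.17, adjusted p = 0.00714), and SCO1 gave 0.19 and 0.43, a difference of 0.61 (0.32 to 0.90, adjusted p = 0.0173). Both AKAP1 null values lay above both wild-type values for COX15 and SCO1. These 3 calls held without AKAP1 null replicate 1 (adjusted p = 0.0166 for COX15, 0.0491 for SCO1 and 0.0464 for COX20) and were lost without any of the others. Without wild-type replicate 1, wild-type replicate 2 or AKAP1 null replicate 2, the adjusted p was 0.0947, 0.0771 and 0.0767 for COX15, 0.143, 0.184 and 0.136 for SCO1, and 0.0633, 0.172 and 0.113 for COX20. With TMM the difference of SCO1 was 0.44 (adjusted p = 0.0969), and with no term per lysate the adjusted p was 0.0582 for COX15, 0.124 for SCO1 and 0.484 for COX20.

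The remaining members gave no call. COX18 went from negative values to −0.05 and 0.30, a difference of 0.51 (0.14 to 0.88, adjusted p = 0.0678). COX10 gave 0.07 and 0.01, a difference of 0.28 (adjusted p = 0.160), COX16 gave −0.15 and 0.05, a difference of −0.34 (adjusted p = 0.291), and COX11 gave 0.43 and 0.04, a difference of −0.02 (adjusted p = 0.953). Taken by lysate, AKAP1 null and wild-type values did not overlap for 9 of 10 members, wild-type higher in 5 and AKAP1 null higher in 4. Over all 13856 genes, wild-type was higher without overlap in 3083 and AKAP1 null in 7403. Within AKAP1 null cells, 2 members were called enriched (SCO1 and SURF1) and 2 depleted (COX17 and COX20), beside 13.9% and 28.1% of genes, 42.0% together (20.0% and 20.7% with TMM). The calls of SCO1 (adjusted p 0.0692 and 0.339) and COX20 (0.0542 and 0.175) there were lost without AKAP1 null replicate 1 or 2.

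In LARP4 null cells no gene passed the test against wild-type, so 0 of 10 members were called beside 0% of 13856 genes, of which 2270 had an unadjusted p below 0.05. COX14 gave 1.17 and 0.94, a difference of −0.69 (−0.999 to −0.38, adjusted p = 0.168). COX17 gave 0.44 and 0.41, a difference of −0.67 (−0.95 to −0.40, adjusted p = 0.160), and SURF1 gave 1.64 and 1.42, a difference of −0.51 (−0.89 to −0.14, adjusted p = 0.299). Every LARP4 null lysate lay below every wild-type lysate and above every AKAP1 null lysate for these 3 genes, while for COX15 and SCO1 both LARP4 null values lay above both wild-type values and the other 5 members overlapped. Over all 13856 genes, wild-type was higher without overlap in 1721 and LARP4 null in 6037. Between the null lines, LARP4 null was higher without overlap in 3433 genes and AKAP1 null in 3042. Among members, LARP4 null was higher in 4 (COX20 beside these 3) and AKAP1 null in 4. DESeq2 called the same 3 members lower (adjusted p 0.00108, 0.000331 and 0.0444), with 2 genes higher and 454 lower in all. Without LARP4 null replicate 1, edgeR also called all 3 (adjusted p 6.85e-05, 0.000207 and 0.00299), but that fit called 4517 genes higher and 1142 lower in all. Without LARP4 null replicate 2 it called COX17 (0.0200), with 3 genes higher and 93 lower in all. The other 7 members differed from wild-type by −0.25 to 0.13.

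LARP4 null cells still enriched SURF1 (1.53), COX14 (1.06) and COX17 (0.43) and depleted COX15 (−0.48) and COX18 (−0.46), 3 higher and 2 lower beside 22.8% and 30% of genes, 52.8% together. The calls of COX17 and COX18 were lost with no term per lysate (adjusted p 0.111 and 0.0542) and with only the libraries compared (0.0690 and 0.0693). Set directly against the LARP4 null line, the AKAP1 null line had lower enrichment of COX17 (−1.17, adjusted p = 0.00202), COX14 (−1.14, adjusted p = 0.00291) and SURF1 (−0.99, adjusted p = 0.0121) and higher enrichment of COX15 (0.70, adjusted p = 0.0306). These are 3 lower and 1 higher of 10, beside 2.94% and 1.72% of genes, 4.67% together. Without AKAP1 null replicate 2 none of the 4 was called (adjusted p 0.0549, 0.0626, 0.153 and 0.252), and without AKAP1 null replicate 1 the call of COX15 was lost (0.0537). None of the 4 was called with no term per lysate (0.0990, 0.0533, 0.0624 and 0.232), and with only the libraries compared SURF1 (0.0602) and COX15 (0.108) were not. Without LARP4 null replicate 1 or 2, COX18, SCO1 and COX20 were called too.

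**Figure D3:**
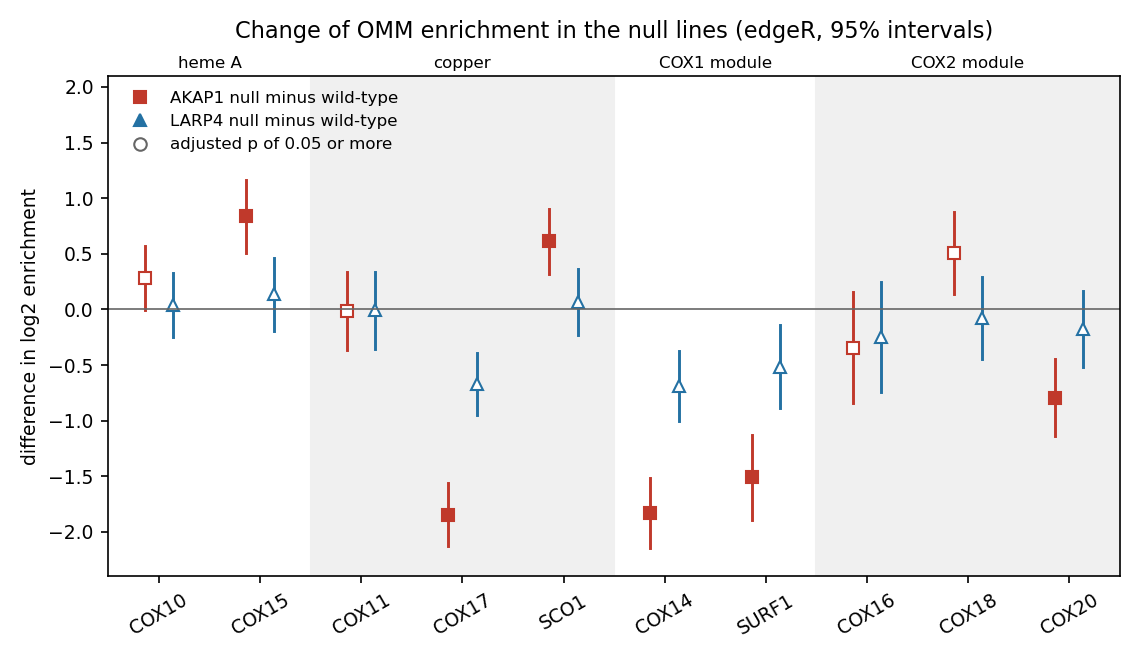
Difference in log2 OMM enrichment (vertical axis) between each null line and wild-type for the 10 members, grouped by role, from the edgeR fit with 95% intervals, filled where the adjusted p is below 0.05. COX17, COX14, SURF1 and COX20 are filled below 0 and COX15 and SCO1 above 0 for AKAP1 null cells, and no point is filled for LARP4 null cells.

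The mRNA levels of the members in the total inputs showed no difference past the test, which had little power. AKAP1 itself differed by −2.15 between AKAP1 null and wild-type total inputs and was not called (edgeR adjusted p = 0.243). The lack of a call for a member thus does not show that its level was unchanged. Between AKAP1 null and wild-type total inputs, scaled by TMM, the 10 members differed by −0.35 (COX20) to 0.26 (COX16), with 0 called beside 0% of 13856 genes in edgeR, of which 475 had an unadjusted p below 0.05 and DESeq2 called 7 higher and 7 lower. COX14 stood at 24.5 and 19.5 CPM per kb in AKAP1 null and 19.4 and 18.04 in wild-type total inputs, a difference of 0.24 (−0.12 to 0.60). COX17 stood at 19.8 and 15.0 against 14.4 and 15.4, a difference of 0.23 (−0.17 to 0.63), and SURF1 at 5.26 and 5.53 against 5.83 and 5.71, a difference of −0.09 (−0.49 to 0.31). In the pulldowns the same genes went from 64.6 and 60.7 to 22.1 and 19.1 CPM per kb for COX14, from 29.6 and 34.4 to 11.5 and 9.20 for COX17, and from 23.5 and 24.1 to 8.49 and 7.18 for SURF1. In LARP4 null total inputs the members differed by −0.27 to 0.22, and 0 were called beside 0.00722% higher and 0.00722% lower of genes, 0.0144% together (500 with an unadjusted p below 0.05, and 13 higher and 14 lower in DESeq2).

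**Figure D4:**
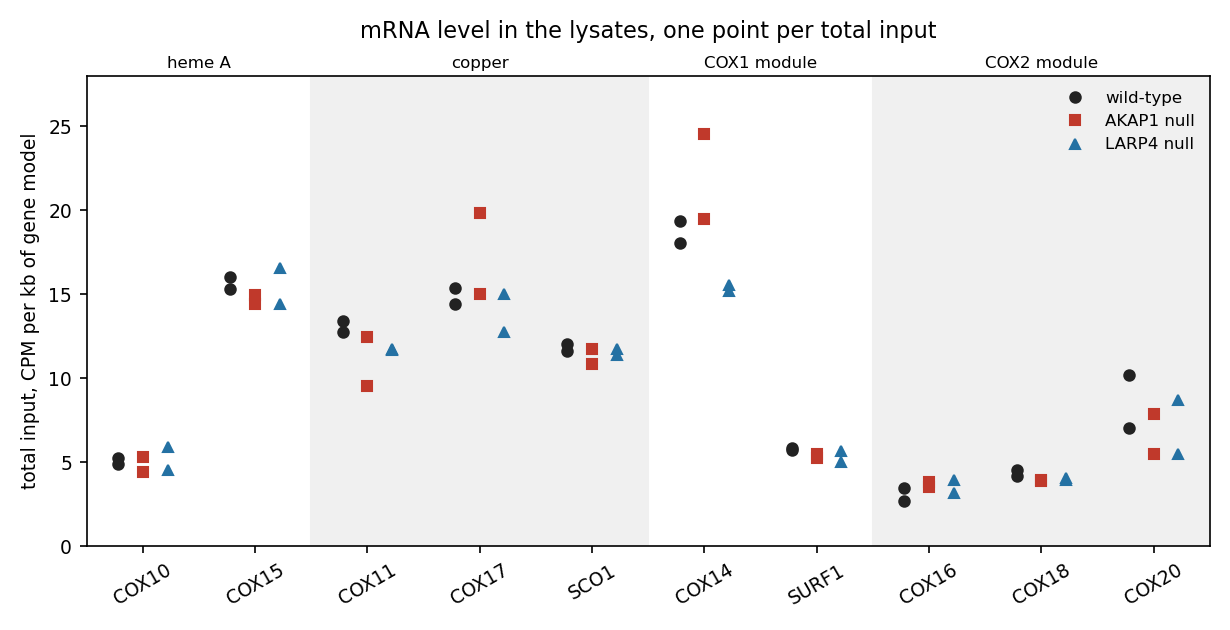
mRNA level in the total inputs (CPM per kb of gene model, vertical axis from 0) for the 10 members in wild-type, AKAP1 null and LARP4 null cells, 1 point per lysate. COX14 has the highest and COX16 the lowest median over the 6 lysates, and COX15 lies above COX14 in LARP4 null replicate 2.

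The members that fell in AKAP1 null cells encode mostly short proteins. COX14 has 57 aa, COX17 63, COX16 106 and COX20 118, and 3 of these 4 fell, 0 rose and the median difference was −1.31. The 6 members of 276 aa or more gave 1 fall (SURF1, 300 aa) and 2 rises (COX15, 410 aa, and SCO1, 301 aa) with a median of 0.40. Over all tested genes with a reference protein, 39.8% of 1460 genes under 200 aa fell and 0.753% rose, against 3.25% and 8.37% of 10564 longer ones, with medians of −0.43 and 0.24. Wild-type enrichment had the same order: 63.6% of the short and 15.1% of the longer genes were called higher, and among members 3 of 4 and 1 of 6. SURF1 is thus the member whose values went with the short genes and whose protein length did not. Among the 10 members it did not stand apart by mRNA length: COX17 has 426 bases, COX14 484 and SURF1 1092. The next members are COX16 at 1669 and COX20 at 2295 bases. Whether protein or mRNA length goes with the change was not tested. Of the other assembly factors, PNKD (385 aa, mRNA of 2987 bases) also fell, by −1.04. Falls in that list came with short mRNAs (HIGD2A, 654 bases, −1.46, and PET100, 663 bases, −1.91) and with a long one (CMC1, 6009 bases, −1.96).

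**Figure D5:**
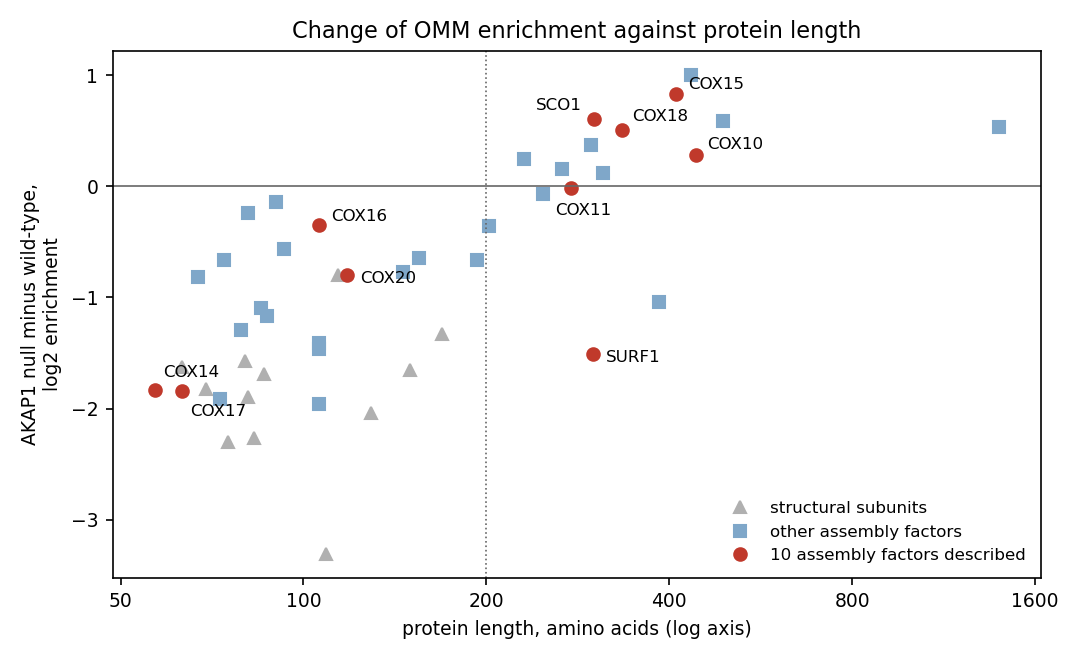
Difference in log2 OMM enrichment between AKAP1 null and wild-type cells (vertical axis) against protein length in aa (horizontal log axis, dotted line at 200 aa) for the 10 members, 25 other assembly factors and 12 structural subunits. Members below 200 aa lie below 0, and of the longer members SURF1 lies far below the rest.

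Other factors of complex IV assembly gave a background for these values. In wild-type RNA-seq 22 of 25 were called higher and 2 lower (median 0.75), led by PET100 (2.39), CMC1 (1.72) and PNKD (1.5), with LRPPRC (−0.87) and COA7 (−0.45) lower. In AKAP1 null against wild-type cells 14 fell and 2 rose (median −0.64), with CMC1 (−1.96), PET100 (−1.91) and HIGD2A (−1.46) falling most and OXA1L (1.00), the inner membrane insertase, and LRPPRC (0.54) rising. Of 17 with enough footprints at the OMM, 12 were higher and 1 lower (median 1.02), led by OXA1L (2.39), HIGD2A (1.47) and COA3 (1.26), with COA7 lower (−0.61). The structural subunits, all of 63 to 169 aa, moved more evenly than the 10 members, of which 4 are under 200 aa. Of proteins under 200 aa, 3 of 4 members, 13 of 15 other assembly factors and 12 of 12 structural subunits fell in AKAP1 null cells. All 12 were higher in wild-type RNA-seq (0.93 to 3.80, median 2.24), led by COX6A1 (3.80), COX7A2 (2.80) and COX5B (2.7), and all 12 fell in AKAP1 null cells (−3.31 to −0.80, median −1.76), where COX6A1 (−3.31), COX6C (−2.30) and COX7A2 (−2.27) fell most. At the OMM 9 of 9 with enough footprints were higher (median 1.72). With TMM and DESeq2 the counts of the structural subunits in these 3 comparisons did not change, and at most 1 call changed in either direction for the other assembly factors, the 1 lower call at the OMM being lost with both.

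Without CHX, the 1 wild-type lysate gave 2.16 for SURF1, 1.39 for COX14 and 1.18 for COX17, against wild-type means of 2.04, 1.74 and 1.10 with CHX. COX20 gave −0.35 against a mean of 0.32, the largest shift of the 10 at −0.67. The other 6 members shifted by −0.13 to 0.26. With 1 lysate there is no test of these differences. The label of that lysate names no gRNA, so cells, labelling time and CHX cannot be told apart in them.

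For the members called between AKAP1 null and wild-type cells, the genes with the most similar pattern were found by Euclidean distance over the log2 enrichment of all 7 RNA-seq lysates. NDUFA6 (distance 0.279) and NDUFA1 (0.366), subunits of complex I, and COX8A (0.377), a subunit of cytochrome c oxidase, were nearest to SURF1. CARD19 (0.254), EMC6 (0.284) and CHCHD5 (0.319) were nearest to COX14, and ATP5MK (0.373), a small subunit of ATP synthase, to COX17, whose next gene was already at 0.736. NADK2 (0.318) and TFAM (0.327), both of which act in the mitochondrial matrix, were nearest to COX15, IVD (0.178) to SCO1 and PTP4A3 (0.212) to COX20.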

How the data were processed

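Ribosome profiling (12 libraries) and RNA-seq (14 libraries) of streptavidin pulldowns and total inputs were analysed, the 2 libraries of a lysate being paired as the study's methods describe. For footprints the authors deposited estimated counts and RPKM per entry, made with TopHat and plastid from unique alignments, with coding sequence and all exons apart. Each footprint is spread over its central positions, so the counts need not be whole, and they were rounded for the fits. The RPKM are scaled to the reads on annotated transcripts, so their level differs from that of the fits. Entries that name several genes (1079 of 58849, 5.86 to 8.56% of counts) were not tested. For RNA-seq the authors deposited whole counts per gene, from STAR and featureCounts, and a score named FPKM that is a constant multiple of what the counts and lengths give and was not used. The submitters' processing notes name GRCh38 and Bowtie. The strand setting of the counting is not given in the sources used here. A broken entry of 1 gene (ANK2) was dropped.

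Fits used edgeR 4.0.16 (quasi-likelihood, R 4.3.3) with a term per lysate, a pulldown effect per location or genotype, library totals as sizes and Benjamini-Hochberg adjustment over all genes tested, called at 0.05. Genes needed 64 footprints in both total inputs of each location compared, or a mean of 64 RNA-seq counts over the 12 libraries with CHX. Total inputs were compared with TMM scaling and genotype only. Values per lysate are log2 of RPKM ratios, or of CPM ratios with 0.5 counts added. Levels per kb use the gene lengths deposited with the counts, and intervals are at 95%. Coordinates, overlaps, and protein and mRNA lengths are from GENCODE. DESeq2 1.42.0, TMM, other minimums and libraries left out were alternatives. Tested on simulated data with 200 changed genes, the OMM fit (6728 genes) recovered 91% of log2 changes of 1 and 33% of 0.5. The AKAP1 null against wild-type fit (13856 genes) recovered 66% and 0%. Unchanged genes called in these simulations were 21 and 4 in the first fit and 20 and 0 in the second. With changes of 1, false calls were thus a larger share of the calls than the threshold of 0.05 aims at. At the OMM, COX10, COX20 and SURF1 fell under the footprint minimum and are given with the lower one.

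The members, the other assembly factors and the structural subunits were chosen with earlier results of these data known. The named genes are the 10 members, of each of the other 2 lists up to 3 called values that were largest in each direction, and the genes nearest in Euclidean distance to each member called between AKAP1 null and wild-type cells. Plots were drawn with matplotlib 3.10.9, and tables were handled with pandas 2.3.3.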

Additional observations from a re-analysis of the deposited data

Results flagged for a closer look

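The values here are log2 differences between the enrichments of 2 groups that passed the edgeR test of the difference itself, adjusted over all genes tested. Between locations, footprints of COX14 differed by 1.76 between the OMM and the ER and by 1.93 between the OMM and the cytosol. COX18 differed by −0.63 between the OMM and the ER, and COX11 by 0.48 between the OMM and the cytosol.

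Between AKAP1 null and wild-type cells, the OMM enrichment of the mRNA differed by −1.84 for COX17, −1.83 for COX14, −1.51 for SURF1 and −0.79 for COX20, and by 0.84 for COX15 and 0.61 for SCO1. Between AKAP1 null and LARP4 null cells it differed by −1.17 for COX17, −1.14 for COX14, −0.99 for SURF1 and 0.70 for COX15. The AKAP1 null lysates enter both comparisons, and each null genotype is 1 line.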

How the results depend on the processing

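Of the single values of the members, 442 kept direction and call under other settings, 33 lost their call, 26 gained one, 19 changed sign with no call in either setting and 6 reversed with a call in at least 1 of them. With 1 lysate left out, 244 kept direction and call, 35 lost it, 12 gained one and 27 changed sign with no call. The 6 reversed ones were, at the ER, SCO1 (0.45 with DESeq2, 0.49 with TMM) and COX14 (0.51 and 0.54), and in wild-type RNA-seq COX10 (0.048 and 0.057). With DESeq2 the members called were 4 higher at the ER, 1 lower in wild-type, 4 higher and 1 lower in AKAP1 null cells, 3 lower in LARP4 null against wild-type and 2 higher in AKAP1 null against LARP4 null. With TMM they were 4 higher at the ER, 1 lower in wild-type, 4 higher in AKAP1 null cells and 1 higher in AKAP1 null against wild-type. With no replicate block, which drops the pairing of pulldown and total input, they were 1 higher at the ER, 1 at the OMM, 0 in the cytosol, 0 lower in OMM against ER, 1 higher in OMM against cytosol, 1 lower in wild-type, 1 higher and 1 lower in AKAP1 null, 1 lower in LARP4 null, 0 higher in AKAP1 null against wild-type, and 0 in either direction in AKAP1 null against LARP4 null. A minimum of 10 footprints gave 1 lower at the OMM, 1 lower in the cytosol and 2 higher in OMM against ER. The library sizes of the RPKM gave 3 higher in the cytosol, and 1 higher and 1 lower in OMM against cytosol. Only the libraries compared gave 0 higher in the cytosol, 2 higher in OMM against ER, 4 higher in AKAP1 null, 1 lower in LARP4 null, 4 higher in AKAP1 null against wild-type and 0 higher in AKAP1 null against LARP4 null.

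With 1 lysate left out, the lone lysate being assumed to vary like the others, the members called ranged as follows. They were 1 to 1 higher at the ER, 0 to 1 in the cytosol, 1 to 2 higher and 0 to 1 lower in OMM against ER, and 1 to 2 higher and 0 to 1 lower in OMM against cytosol. They were 1 to 1 lower in wild-type, 0 to 1 higher and 1 to 1 lower in AKAP1 null, 0 to 2 higher in AKAP1 null against wild-type, 0 to 3 lower in LARP4 null against wild-type, and 0 to 3 higher and 0 to 4 lower in AKAP1 null against LARP4 null. Over all genes, AKAP1 null against wild-type gave 903 higher and 1103 lower, 4530 and 1948 with only the libraries compared 98 and 331 with no replicate block, 285 and 1424 with TMM, 368 and 1368 with DESeq2, and with 1 lysate left out 121 to 208 and 359 to 536. LARP4 null against wild-type gave 4517 and 1142 without LARP4 null replicate 1. For total inputs, a replicate block gave 0 calls in both comparisons (615 and 551 genes with an unadjusted p below 0.05). The replicate numbers there correlated at 0.19, 0.34 and −0.07 in their deviations and were not taken as pairs.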
